A study of Sorghum propinquum with 2 samples.

Results

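The 5 genes described here encode enzymes that make or break down malate, among them the copies of the C4 cycle of photosynthesis, and they were measured by RNA sequencing in the rhizome and the shoot of *Sorghum propinquum*. They were chosen by locus ID and are 3 NADP-malic enzyme genes (Sb03g003230, Sb03g003220 and Sb09g005810) and 2 NADP-malate dehydrogenase genes (Sb07g023920 and Sb07g023910). All 5 of the 5 IDs were present in the tables of both organs, among 24371 listed genes. The roles are those of these loci in *Sorghum bicolor*, since the deposited tables hold no gene names. Sb03g003230 and Sb07g023920 are the C4 copies there, and Sb03g003220 and Sb07g023910 are their tandem neighbours. By the digits of the IDs the malic enzyme pair lies on chromosome 3, the malate dehydrogenase pair on chromosome 7 and Sb09g005810 on chromosome 9.

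*Sorghum propinquum* is a wild sorghum that spreads by rhizomes, which are underground stems. Both organs were taken, at the active tillering stage, from a vegetative clone of an unnamed accession that tillers abundantly, has strong rhizomes and was grown in a greenhouse. Each organ gave 1 library, with 16862624 reads in genes for the rhizome and 17153968 for the shoot. No value therefore has an error between plants, no test across samples was possible, and every interval below is an exact 95% interval for counting error only. Molecular identifiers are not mentioned, and reads that are PCR copies of 1 molecule would count more than once. Which shoot parts were sampled is not given, and the organ labels were not checked against marker genes, because the tables do not pair IDs with names.

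Sorghums fix carbon by the NADP-malic enzyme type of C4 photosynthesis. In the chloroplasts of mesophyll cells, NADP-malate dehydrogenase reduces oxaloacetate to malate, and this enzyme is switched on in the light through thioredoxin. Malate then moves to the chloroplasts of the bundle sheath, where NADP-malic enzyme splits it into pyruvate, CO2 and NADPH, so that Rubisco works at a raised CO2 level. Plants also carry forms of both enzymes outside the C4 cycle, which serve general malate and NADPH metabolism.

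The C4 copies of both enzymes were about 15-fold more abundant in the shoot library than in the rhizome library. The other 3 genes were also higher in the shoot, by 1.17-fold to 3.32-fold. The order of the 2 tandem malic enzyme copies was opposite in the 2 organs. In the rhizome the tandem neighbour Sb03g003220 had the highest level of the 5 genes, and in the shoot the C4 malate dehydrogenase Sb07g023920 had the highest. Levels are given in RPKM, the reads per 1000 bases of deposited gene length and per 1000000 reads of the library, so that genes of different length can be set side by side. In these bulk samples, fewer cells of a type and less RNA per cell cannot be told apart.

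**Figure D1:**
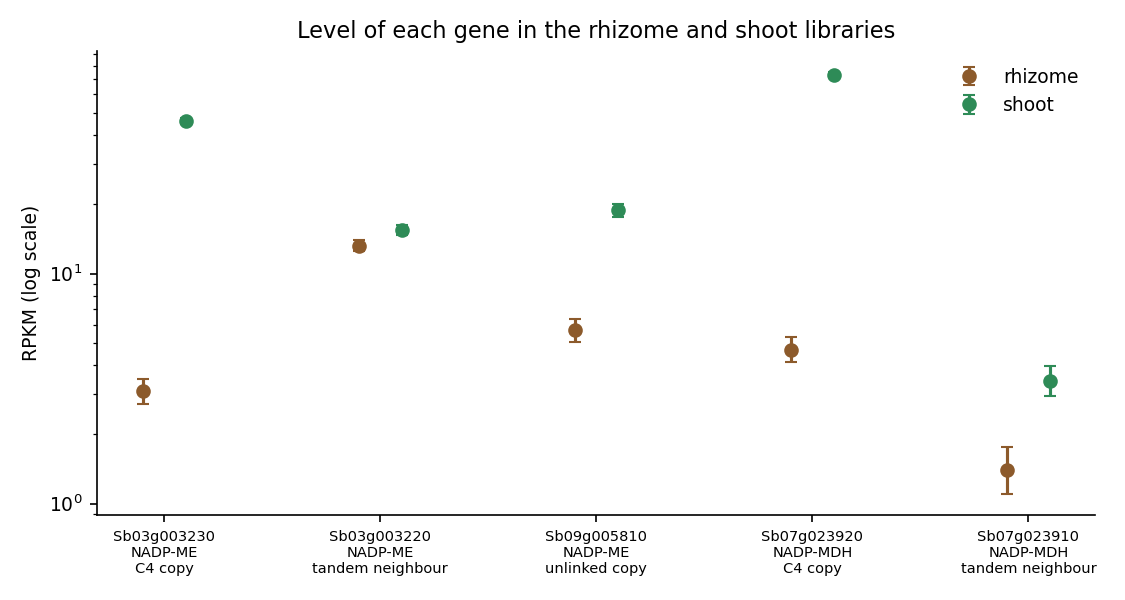
The level of each of the 5 genes in RPKM (log axis) in the rhizome library (brown) and the shoot library (green), with 1 library per organ. Bars are exact 95% Poisson limits of the count. Both C4 copies lie under 5 RPKM in the rhizome and at 46.1 and 72.9 RPKM in the shoot, while Sb03g003220 lies at 13.2 and 15.5 RPKM.

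The C4 NADP-malate dehydrogenase Sb07g023920, which makes the malate that enters the cycle, had 252 reads in the rhizome and 4000 in the shoot. Its levels were 4.67 RPKM (Poisson limits 4.12 to 5.29) in the rhizome and 72.9 RPKM (70.7 to 75.2) in the shoot. It was thus 15.6-fold higher in the shoot, with an interval of 13.7 to 17.8. By level it ranked 1104th of the 24371 listed genes in the shoot and 11561st in the rhizome. It was a well-expressed gene of the shoot library and stood near the middle of the rhizome list.

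The tandem neighbour Sb07g023910, the other NADP-malate dehydrogenase gene chosen here, was the least abundant of the 5 genes in both organs. It had 74 reads and 1.40 RPKM (1.10 to 1.76) in the rhizome, and 184 reads and 3.42 RPKM (2.94 to 3.95) in the shoot. It was 2.44-fold higher in the shoot (1.86 to 3.25), the widest interval of the 5 on the log scale because its counts were the lowest. Its limits in the 2 organs did not overlap.

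The C4 NADP-malic enzyme Sb03g003230, which releases CO2 from malate, had 251 reads in the rhizome and 3828 in the shoot. Its levels were 3.08 RPKM (2.71 to 3.48) in the rhizome and 46.1 RPKM (44.7 to 47.6) in the shoot. It was 15.0-fold higher in the shoot (13.2 to 17.1), and it ranked 1836th in the shoot and 13585th in the rhizome. Its read counts were thus close to those of the C4 malate dehydrogenase in both organs, although it is listed at 4839 bases against 3197.

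Its tandem neighbour Sb03g003220 differed least between the organs. It had 1196 reads and 13.2 RPKM (12.5 to 14.0) in the rhizome, and 1428 reads and 15.5 RPKM (14.7 to 16.3) in the shoot. The shoot value was 1.17-fold higher (1.09 to 1.27), a small difference that lay outside counting error but has no measure of variation between plants. The library scaling bears on a difference of this size. Over the 16710 genes that reached 1 RPKM in each library, the median log2 ratio of rhizome to shoot was 0.22, and that of Sb03g003220 was -0.23, or -0.45 relative to this median.

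Sb09g005810, the chosen NADP-malic enzyme gene outside the tandem pair, lay between the tandem copies in its difference between the organs. It had 294 reads and 5.67 RPKM (5.04 to 6.36) in the rhizome, and 994 reads and 18.8 RPKM (17.7 to 20.1) in the shoot. It was 3.32-fold higher in the shoot (2.92 to 3.80), more than Sb03g003220 and less than the C4 copy.

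All 5 genes had a counting interval wholly on the shoot side of a ratio of 1. Among the 19324 genes that reached 1 RPKM in at least 1 library, the same was true of 31.4%, while the interval of 46.8% lay wholly on the rhizome side. In direction alone, 5 of 5 genes were higher in the shoot, against 41.1% of these 19324 genes, or 51.2% after the median ratio of the shared genes was set to 1. The median log2 ratio of rhizome to shoot was -1.73 over the 5 genes, all of which reached 1 RPKM, and 0.20 over the same 19324 genes.

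Genes were called by size, as at least 4-fold different with at least 5 RPKM in the higher library. Of the 5 genes, 4 were among the 12826 that reached 5 RPKM in at least 1 library, and Sb07g023910 did not, so it could not be called. Of these 4, the 2 C4 copies were called higher in the shoot and 0 genes were called higher in the rhizome. Over all genes tested, 9.02% were called higher in the shoot and 1.80% higher in the rhizome. The whole counting interval of both C4 copies lay beyond 4-fold toward the shoot, as it did for 7.40% of the genes tested. Both also passed 8-fold toward the shoot, as did 5.22% of the genes tested. A 2-fold threshold, which 16.8% passed toward the shoot, added Sb09g005810. Both C4 copies reached 5 RPKM through their shoot value alone, so the count of 2 is not independent of that minimum. Ordered from the most shoot-sided ratio, Sb07g023920 was at place 454 and Sb03g003230 at place 466 of 12826 genes. The C4 copies were 12 places apart, while Sb09g005810 stood at place 1354 and Sb03g003220 at place 4094. These places carry no counting interval, so the gap of 12 is not a measured closeness. Both C4 copies also entered this order through their shoot value alone.

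**Figure D2:**
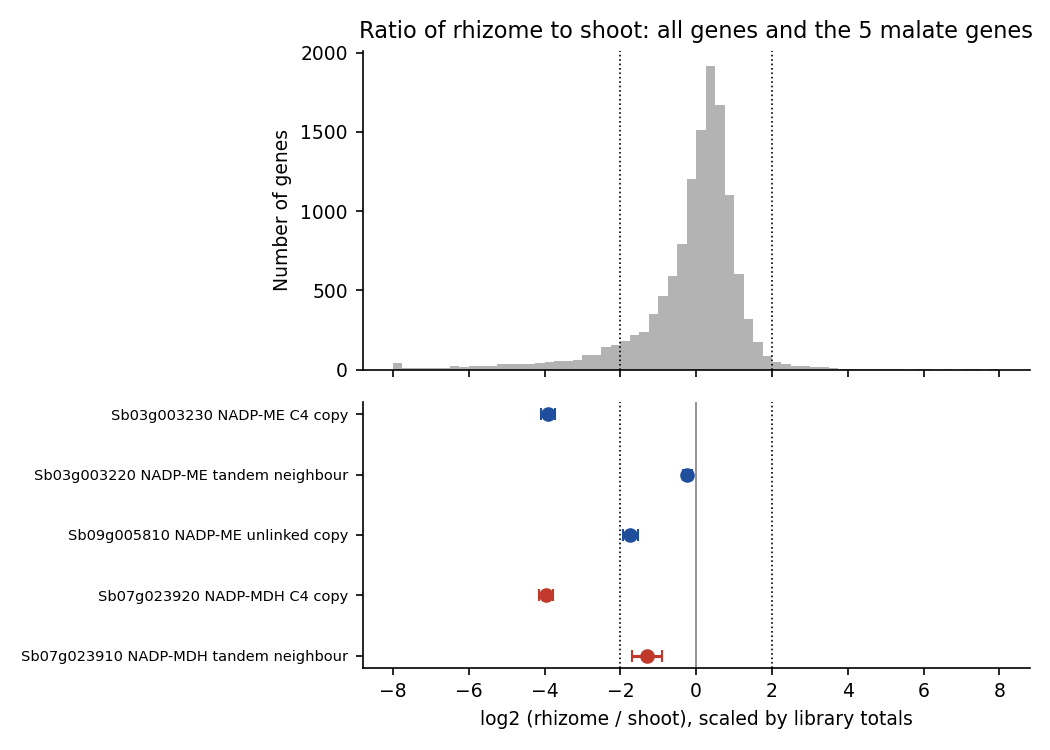
The top panel counts genes by their log2 ratio of rhizome to shoot, for genes that reached 5 RPKM in at least 1 library, with values beyond 8 in the end bins and 61 genes with 0 reads in one library not drawn. The bottom panel shows the 5 genes on the same axis with exact 95% intervals, NADP-malic enzymes in blue and NADP-malate dehydrogenases in red, and dotted lines mark 4-fold. Both C4 copies lie near -3.9, and the other 3 lie between the 4-fold line and 0.

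The difference between organs was set side by side for each of the 10 pairs of genes, as the ratio of the 2 shoot-to-rhizome ratios. This measure depends neither on the library scaling nor on gene length. For 8 of the 10 pairs its interval excluded 1, both at 95% and at 99.5%, the level that allows for 10 pairs. The pair of C4 copies was one of the other 2, with a shoot-to-rhizome ratio of Sb07g023920 that was 1.04 times that of Sb03g003230 (0.865 to 1.25). A smaller gap between the C4 copies than this interval spans was not detectable at this depth. The other was Sb09g005810 against Sb07g023910, at 1.36 (0.993 to 1.85), where the 74 rhizome reads of the latter set the width. The 99.5% intervals also hold counting error only, and the share over pairs of all listed genes was not computed. At this depth the interval of a single gene often excluded 1, on the shoot side for 31.4% and on the rhizome side for 46.8% of the 19324 genes. The count of 8 is therefore not read as a trait of these genes.

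The level of the C4 copies relative to each other was close in the 2 organs. Per length, the malate dehydrogenase Sb07g023920 was 1.52 times as abundant as the malic enzyme Sb03g003230 in the rhizome (1.27 to 1.82) and 1.58 times in the shoot (1.51 to 1.65). In reads the 2 genes were close, with 252 and 251 in the rhizome and 4000 and 3828 in the shoot. The excess per length thus rests mostly on the deposited lengths of 3197 and 4839 bases. With 2 libraries no correlation can be given.

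The tandem malic enzyme copies had the opposite order in the 2 organs. In the rhizome the C4 copy Sb03g003230 had 0.233 times the level of Sb03g003220 (0.202 to 0.267). In the shoot it had 2.97 times the level of Sb03g003220 (2.80 to 3.16). The ratio of the C4 copy to its neighbour was therefore 12.8 times higher in the shoot (11.0 to 14.9). Most of this shift lay in the C4 copy, since the neighbour differed by 1.17-fold.

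The tandem malate dehydrogenase copies had the same order in both organs. The C4 copy Sb07g023920 had 3.34 times the level of Sb07g023910 in the rhizome (2.57 to 4.39) and 21.3 times in the shoot (18.4 to 24.9). The ratio of the C4 copy to its neighbour was 6.38 times higher in the shoot (4.66 to 8.67). In both tandem pairs the C4 copy thus took a larger part in the shoot, but only in the malic enzyme pair was it below its neighbour in the rhizome. How the authors assigned reads that match more than 1 gene is not given. If tandem copies are nearly identical, part of the reads of one may be counted for the other, so the split within each pair is uncertain.

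The 3 malic enzyme genes chosen here summed to 21.96 RPKM in the rhizome and 80.5 RPKM in the shoot. The C4 copy made up 14.0% of this sum in the rhizome and 57.3% in the shoot. Sb03g003220 made up 60.2% in the rhizome and 19.3% in the shoot, and Sb09g005810 made up 25.8% and 23.4%. As shares of the reads of these 3 genes, which carry a counting interval, the C4 copy had 14.4% in the rhizome (12.8% to 16.2%) and 61.2% in the shoot (60.0% to 62.5%). Of the difference of 58.5 RPKM between the organs, the C4 copy contributed 73.6%. Without it, the other 2 malic enzyme genes chosen here summed to 18.9 RPKM in the rhizome and 34.4 RPKM in the shoot. Any further malic enzyme genes were not counted, so these sums and shares are not those of the whole enzyme family.

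The 2 malate dehydrogenase genes chosen here summed to 6.07 RPKM in the rhizome and 76.4 RPKM in the shoot. The C4 copy made up 77.0% of this sum in the rhizome and 95.5% in the shoot. In reads of these 2 genes its share was 77.3% in the rhizome (72.4% to 81.7%) and 95.6% in the shoot (94.9% to 96.2%). It contributed 97.1% of the difference of 70.3 RPKM between the organs.

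**Figure D3:**
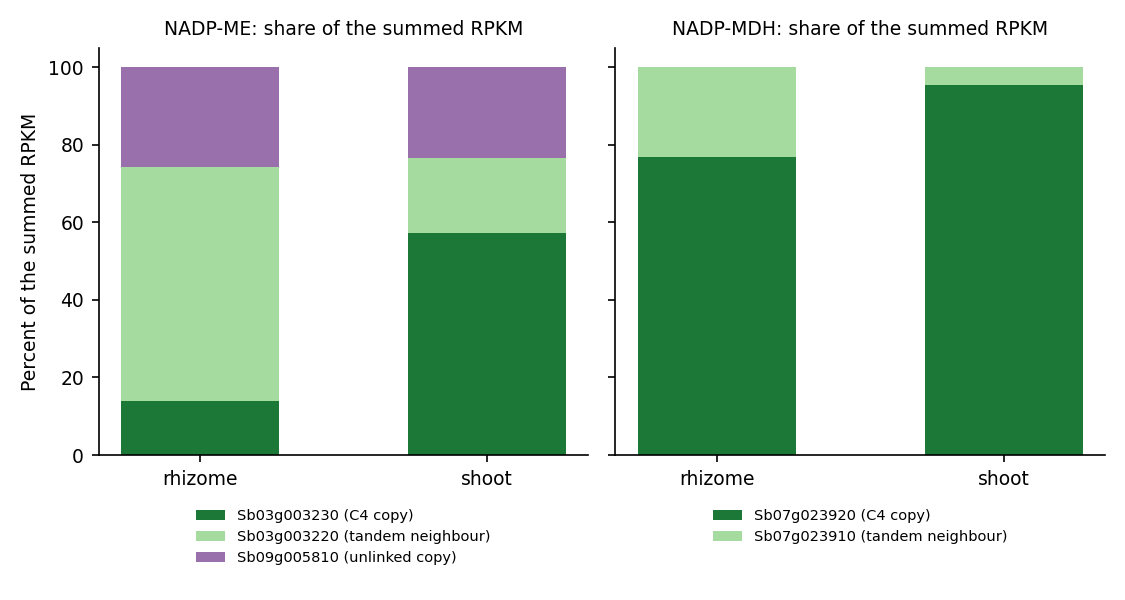
Stacked bars give the percent held by each gene of the summed RPKM of the chosen genes of each enzyme, in the rhizome and shoot libraries. Among the chosen NADP-malic enzyme genes the C4 copy holds 14.0% in the rhizome and 57.3% in the shoot. Among the chosen NADP-malate dehydrogenase genes the C4 copy holds 77.0% and 95.5%.

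The balance of the chosen genes of the 2 enzymes differed between the organs. The summed level of the chosen malic enzyme genes was 3.62 times that of the chosen malate dehydrogenase genes in the rhizome and 1.05 times in the shoot. Further genes of either enzyme were not counted, so the balance of the enzymes as a whole is not known. In reads, the chosen malic enzyme genes took 103 reads per 1000000 in the rhizome (98.5 to 108) and 364 in the shoot (355 to 373). The chosen malate dehydrogenase genes took 19.3 reads per 1000000 in the rhizome (17.3 to 21.5) and 244 in the shoot (237 to 251). For these genes, the shoot library held 3.53 times the malic enzyme reads (3.35 to 3.72) and 12.6 times the malate dehydrogenase reads (11.3 to 14.2) of the rhizome library, scaled by the library totals.

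Within each library the 5 levels could be put in order, and no interval of the ratio between neighbours in that order included 1. In the rhizome the order was Sb03g003220, Sb09g005810, Sb07g023920, Sb03g003230 and Sb07g023910. The closest neighbours there were Sb09g005810 and Sb07g023920, with a ratio of 1.21 (1.02 to 1.44). In the shoot the order was Sb07g023920, Sb03g003230, Sb09g005810, Sb03g003220 and Sb07g023910. The closest there were Sb09g005810 and Sb03g003220, with a ratio of 1.22 (1.12 to 1.32). These orders compare levels per deposited length, and how that length was measured is not given. In read counts the shoot order of Sb09g005810 and Sb03g003220 was reversed, with 994 and 1428 reads. Sb07g023920 and Sb03g003230 had nearly equal rhizome counts, 252 and 251 reads, so their order there rests on the length.

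**Figure D4:**
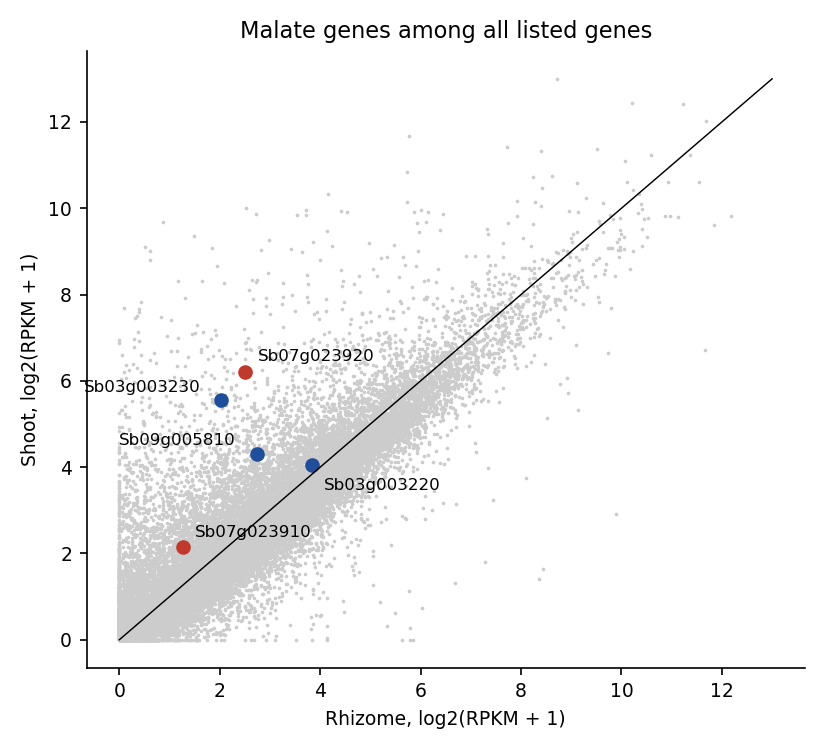
Each grey point is 1 of the listed genes, by its rhizome level (horizontal) and shoot level (vertical), both as log2(RPKM + 1), and the line marks equal values. NADP-malic enzymes are blue and NADP-malate dehydrogenases red. The 2 C4 copies, Sb07g023920 and Sb03g003230, stand farthest above the line of the 5 genes, and Sb03g003220 is nearest to it.

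Genes with a like pair of levels were sought by distance on the log2(RPKM + 1) scale over the 2 libraries, among the same 12826 genes. Nearest to the C4 malic enzyme Sb03g003230 was Sb02g037400, which had 51 rhizome reads (2.87 RPKM) and 851 shoot reads (47.1 RPKM), at a distance of 0.080. Nearest to the C4 malate dehydrogenase Sb07g023920 was Sb09g002380, which had 41 rhizome reads (5.18 RPKM) and 586 shoot reads (72.8 RPKM), at a distance of 0.12. No product is known for these 2 IDs from the sources used here. The C4 copies themselves were 0.81 apart, since their levels per deposited length differed, so that Sb07g023920 was the 80th nearest gene to Sb03g003230. A likeness over 2 libraries is a weak description, as many genes share such a pair of values.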

How the data were processed

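Total RNA, extracted with TRIzol, of 1 rhizome and 1 shoot sample was sequenced as Illumina libraries, per the labels' protocols. Not given in the sources used here are the aligner, counter, build, annotation and use of strand. The deposited counts are whole reads per gene. The deposited RPKM of the authors were recomputed from counts and gene lengths, with the summed counts as depth, and differed by less than 0.0001.

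With 1 library per organ, edgeR's quasi-likelihood test could not be fitted. Ratios of counts have exact conditional binomial (Clopper-Pearson) intervals, levels exact Poisson limits, and ratios of ratios the conditional interval of the odds ratio. The code was tested on simulated data. Alternatives were TMM (edgeR 4.0.16, R 4.3.3), median-of-ratios and a scaling without the 100 most abundant genes, pseudocounts, other thresholds and counts without length.

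The genes, lists and rules were chosen with earlier results of these data known. The named-gene rule took the 5 genes and the nearest genes in level, at most 2 IDs in each direction where no product is known. Gene lists set by product name (other malic enzymes and malate dehydrogenases, C4 and Calvin cycle enzymes, transporters, thioredoxins and tissue markers) could not be filled, so 0 were described. Calculations ran in Python 3.11.15 with scipy 1.17.1, pandas 2.3.3 and numpy 2.4.6, and plots in matplotlib 3.10.9.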

Additional observations from a re-analysis of the deposited data

How the results depend on the processing

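Of 49 values under other settings, 0 changed direction, 36 stayed within the counting interval of the reported value (or within 1.5 times it, for the count of called genes) and 13 moved beyond it. The log2 ratio of rhizome to shoot shifted for every gene by -0.22 under median-of-ratios scaling, by -0.17 under TMM and by -0.02 without the 100 most abundant genes. Each of these scalings thus moved every gene further toward the shoot. A pseudocount added to both levels cannot change the sign of their log2 ratio, and counts of called genes have no direction. That 0 values changed direction therefore says little. Median-of-ratios scaling gave -4.13 for Sb03g003230, -0.45 for Sb03g003220, -1.95 for Sb09g005810 and -4.19 for Sb07g023920, and TMM gave -0.40 for Sb03g003220. A pseudocount of 1 RPKM, which pulls low levels together, gave -3.53 for Sb03g003230, -3.70 for Sb07g023920 and -0.88 for Sb07g023910. With it the log2 ratio of Sb03g003230 to Sb03g003220 in the rhizome was -1.80 and its change between the organs -3.32, and that of Sb07g023920 to Sb07g023910 was 1.24 in the rhizome and 4.06 in the shoot. Without a length correction the log2 ratio of Sb03g003230 to Sb03g003220 in the shoot was 1.42. That setting was applied to the tandem pairs only. The C4 copies were called under all 8 other settings, with 3 genes called at a 2-fold threshold. Only the stricter rules among these could have dropped the C4 copies, since the others loosen the rule or move ratios toward the shoot. Settings that need coding lengths or the gene lists were not run. No paired analysis was possible because there is a single library for each organ, and leaving out a library was not possible either. Depth limits Sb07g023910 most, with 74 and 184 reads.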

Other observations

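None of the genes at 1 RPKM or more beside either tandem pair in ID order, 9 for each pair, had a ratio as far toward the shoot as the C4 copies. Of the 12826 genes at 5 RPKM in at least 1 library, only 3.63% were as far out as Sb03g003230 and 3.54% as far out as Sb07g023920. Finding none among 9 genes is thus the common outcome. Of the 10 listed genes nearest the malic enzyme pair, 5 on each side, 7 reached 5 RPKM in either library and 0 were called in either direction. The 9 of them at 1 RPKM or more had log2 ratios of rhizome to shoot from -1.35 to 1.29, against -3.91 for Sb03g003230. Of the 10 genes nearest the malate dehydrogenase pair, 9 reached 5 RPKM and 0 were called, and the log2 ratios of these 9 ran from -1.24 to 0.53, against -3.96 for Sb07g023920. Over all 12826 genes tested, 9.02% were called higher in the shoot and 1.80% higher in the rhizome. With shares this low, 0 calls among 7 or 9 genes does not set these neighbours apart. ID order is not a measured position in *Sorghum propinquum*.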
